A study of Homo sapiens with 6 samples.

Results

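NF-kappaB (nuclear factor kappa B) subunits and the inhibitors that the pathway makes against itself were followed in MHCC-97H cells, an established human hepatocellular carcinoma line with high metastatic potential. The group was fixed by gene symbol and holds 10 of the 20388 genes in the deposited table. It comprises the 5 subunit genes RELA, RELB, REL, NFKB1 and NFKB2, the cytoplasmic inhibitor genes NFKBIA and NFKBIE, the nuclear inhibitor-like gene BCL3, and the feedback genes TNFAIP3 and BIRC3. All 10 symbols were found, and all 10 passed the expression limit of a mean of at least 1 FPKM. FPKM counts fragments per kilobase of a gene's transcript, relative to all fragments assigned in that library. The series has 3 libraries from cells exposed to 2 µM GK921 for 24 h and 3 from cells given the solvent DMSO for 24 h. The labels give the genotype of both groups as WT. GK921 inhibits transglutaminase 2 (TGM2), an enzyme that cross-links proteins, and the comparison asks what the inhibitor did to the transcriptome. Whether the 3 libraries of a group were separate cultures is not stated, so every p-value rests on a library-to-library spread that may be technical only.

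NF-kappaB proteins work as dimers that are held in the cytoplasm by IkappaB proteins until a kinase complex, IKK, marks the inhibitor for destruction. In the classical arm, IKK frees dimers of RELA with the processed NFKB1 product. In the alternative arm, the kinase NIK drives the processing of the NFKB2 precursor, which releases dimers that hold RELB. The dimers switch on the genes of their own inhibitors, which closes a feedback loop. In liver the pathway is known for its part in inflammation and in the survival of hepatocytes exposed to tumour necrosis factor. In biochemical work outside this series, TGM2 has been described to cross-link the IkappaBalpha protein that NFKBIA encodes.

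The libraries summed to between 821498 and 836182 FPKM. Their read totals are unknown. Relative depth, read from the smallest FPKM steps, was 0.769 to 0.865 of the deepest library in GK921 libraries and 0.87 to 1 in DMSO libraries, so values near 0 are somewhat coarser after GK921. Of 14 hepatocyte and hepatocellular carcinoma markers, 3 had a mean of at least 1 FPKM. These were the epithelial keratin genes KRT8 and KRT18 and the hepatocyte transcription factor gene HNF4A, which averaged 8.57 FPKM in GK921 libraries and 9.11 FPKM in DMSO libraries. ALB, the albumin gene, averaged 0.0533 FPKM in GK921 libraries and 0.0933 FPKM in DMSO libraries, and GPC3 and APOA2 were listed at 0 in every library. The 7 haematopoietic markers summed to 99.7 to 115 FPKM in GK921 libraries and to 106 to 114 FPKM in DMSO libraries, nearly all of it from CD68. The 6 fibroblast and stellate cell markers summed to 1.53 to 2.14 FPKM in GK921 libraries and to 7.5 to 9.22 FPKM in DMSO libraries. Most of the DMSO sum came from DCN, which averaged 0.953 FPKM in GK921 libraries and 8.34 FPKM in DMSO libraries. At low levels PDGFRB and LRAT went the other way. PDGFRB averaged 0.327 FPKM in GK921 libraries and 0.0167 FPKM in DMSO libraries, and LRAT 0.547 and 0.0833 FPKM. COL1A1, COL1A2 and COL3A1 averaged at most 0.12 FPKM in either group. The 4 endothelial markers summed to 6.2 to 7.85 FPKM in GK921 libraries and to 5.23 to 5.77 FPKM in DMSO libraries, with CDH5 listed at 0. The 14 hepatocyte and carcinoma markers summed to 1870 to 1930 FPKM in GK921 libraries and to 2380 to 2390 FPKM in DMSO libraries. The lower sum came from KRT8, which averaged 1100 FPKM in GK921 libraries and 1630 FPKM in DMSO libraries. KRT18 went the other way, at 787 FPKM in GK921 libraries and 740 FPKM in DMSO libraries. PTPRC, the leukocyte common antigen gene, averaged 0.413 FPKM in GK921 libraries and 0.277 FPKM in DMSO libraries. Of the other haematopoietic markers, ITGAM averaged 3.13 FPKM in GK921 libraries and 1.23 FPKM in DMSO libraries. LYZ averaged 2.03 and 0.303 FPKM, with groups that overlapped. CD3E (0.163 and 0.24 FPKM) and CD14 (0.0933 and 0.13 FPKM) averaged less in GK921 libraries. The part of these marker differences in the results that follow was not tested. TGM2 mRNA averaged 42.6 FPKM in GK921 libraries and 42.1 FPKM in DMSO libraries, a level that does not report on the activity of the enzyme.

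All 10 genes were higher after GK921, by amounts that ranged from slight to more than 4-fold. NFKB2, RELB, NFKBIE and BIRC3 rose between 3.71-fold and 4.5-fold. TNFAIP3 and RELA rose 2.23-fold and 1.8-fold. BCL3, REL, NFKB1 and NFKBIA rose between 1.18-fold and 1.54-fold. Each of the 10 was called higher at a limma adjusted p under 0.05, where 46.8% of the 11573 tested genes were called higher and 29.2% lower (75.9% in either direction). In each of the 10 the lowest GK921 value lay above the highest DMSO value, as it did for 48% of tested genes. A rise as such was thus common in these libraries. A rise of at least 1 log2 unit was called in 5 of the 10 genes and in 9.87% of tested genes. The median log2 change was 0.95 for the 10 genes and 0.16 for all tested genes. Folds are ratios of mean FPKM, while log2 changes were taken after adding 1 to each FPKM value. The median gene itself moved up by 0.16, and the calls of NFKBIA and REL depended on how libraries were scaled. With median-ratio scaling 8 of the 10 were called higher and none lower, while over all tested genes that scaling gave 4208 higher and 4377 lower in place of 5411 and 3378. An exact permutation test (two-sided) of each gene by itself gave p = 0.1 for all 10, and 3 libraries against 3 cannot give less. In a bulk sample, a change in the share of cells that express a gene and a change in the RNA per cell cannot be told apart.

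**Figure D1:**
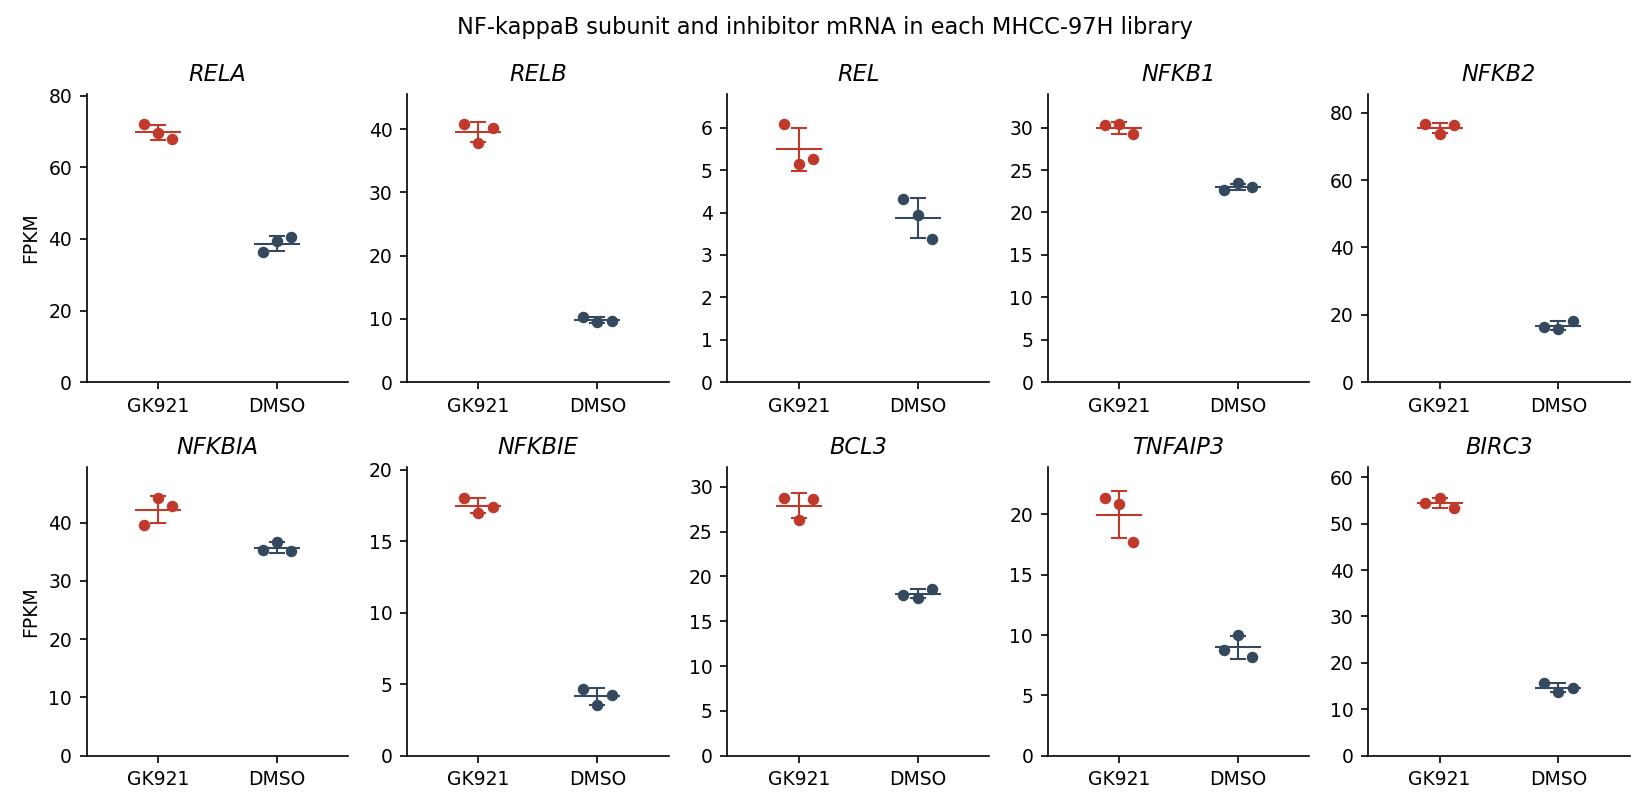
FPKM (linear axes from 0) of the 10 genes in each library, with 3 GK921 libraries in red left of 3 DMSO libraries in dark blue; horizontal bars are means and whiskers are SD. In every panel the lowest red point lies above the highest blue point, by a wide gap for NFKB2, RELB, NFKBIE and BIRC3 and a narrow one for NFKBIA and REL.

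Promoters are shown because several of these genes are textbook targets of the dimers they encode or restrain. The RefSeq promoter table (GRCh38.p14), with 250 bases before and 50 after each start, matched 8 of the 10 genes, all but RELB and NFKBIE. The kappaB consensus (3 G, a purine, any 2 bases, 2 pyrimidines, 2 C, on either strand) was found in a window of 7 of those 8 genes. Among all 35116 windows of this length 11.3% held it, and among tested genes with a window 17.2% did. A gene with more windows has more chances. NFKB2 has 3, and the one at its outermost start (chr10:102393860-102394159, plus strand), the start given with its values below, held no match and is not printed. RELA, with 2 windows, had no match in these letters. The 2 windows of NFKB2 with a match, NFKB2 being the gene with the largest rise, and those of the feedback genes BIRC3 and TNFAIP3 and of NFKBIA, the gene with the smallest rise, are printed 5′ to 3′ on the strand of the gene, with consensus matches in capitals. A run of capitals can hold overlapping matches on both strands. The windows are chr10:102394328-102394627 and chr10:102395455-102395754 (plus strand) for NFKB2, chr11:102317234-102317533 (plus strand) for BIRC3, chr6:137867009-137867308 (plus strand) for TNFAIP3 and chr14:35404700-35404999 (minus strand) for NFKBIA.
NFKB2, inner window: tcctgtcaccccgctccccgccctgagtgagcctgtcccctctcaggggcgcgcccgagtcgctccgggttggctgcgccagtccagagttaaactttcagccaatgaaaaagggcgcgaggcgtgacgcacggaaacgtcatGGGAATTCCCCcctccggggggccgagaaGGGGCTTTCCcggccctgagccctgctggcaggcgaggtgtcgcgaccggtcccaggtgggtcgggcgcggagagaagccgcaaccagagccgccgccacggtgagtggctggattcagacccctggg
NFKB2, downstream window: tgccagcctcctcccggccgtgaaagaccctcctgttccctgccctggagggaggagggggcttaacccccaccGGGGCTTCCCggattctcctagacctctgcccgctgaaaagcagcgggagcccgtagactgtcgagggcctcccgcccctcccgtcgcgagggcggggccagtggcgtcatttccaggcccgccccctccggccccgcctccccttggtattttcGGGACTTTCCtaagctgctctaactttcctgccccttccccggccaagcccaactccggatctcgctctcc
BIRC3: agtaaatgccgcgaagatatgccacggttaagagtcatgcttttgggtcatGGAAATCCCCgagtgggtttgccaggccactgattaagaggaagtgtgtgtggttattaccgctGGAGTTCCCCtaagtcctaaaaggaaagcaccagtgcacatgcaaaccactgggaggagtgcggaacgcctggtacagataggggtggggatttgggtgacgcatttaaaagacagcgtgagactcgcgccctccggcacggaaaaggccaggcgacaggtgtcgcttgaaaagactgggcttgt
TNFAIP3: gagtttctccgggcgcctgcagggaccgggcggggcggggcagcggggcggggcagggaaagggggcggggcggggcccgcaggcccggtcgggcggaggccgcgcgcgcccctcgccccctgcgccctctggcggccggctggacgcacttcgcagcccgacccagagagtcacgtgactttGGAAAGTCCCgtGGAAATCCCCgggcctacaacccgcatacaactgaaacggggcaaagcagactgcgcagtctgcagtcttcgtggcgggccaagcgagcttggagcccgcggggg
NFKBIA: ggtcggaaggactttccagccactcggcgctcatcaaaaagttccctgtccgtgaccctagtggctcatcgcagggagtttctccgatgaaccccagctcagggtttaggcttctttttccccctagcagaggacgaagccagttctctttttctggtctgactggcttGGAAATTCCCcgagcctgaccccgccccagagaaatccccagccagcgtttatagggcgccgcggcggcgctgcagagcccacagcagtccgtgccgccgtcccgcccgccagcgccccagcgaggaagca

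In the inner NFKB2 window the runs GGGAATTCCCC and GGGGCTTTCC began 107 and 78 bases before the start, and in the downstream window GGGACTTTCC began 21 bases before it. BIRC3 and TNFAIP3 shared the run GGAAATCCCC, which began 199 bases before the start in BIRC3 and 55 in TNFAIP3. NFKBIA held GGAAATTCCC, beginning 81 bases before the start. Of the genes not printed, NFKB1 held GGGAATTTCC, REL held GGGAAATTCCC and BCL3 held GGGAAGTCCC. The match GGGAATTTCC was thus found in NFKB1 on the strand of the gene, and in NFKBIA and REL on the opposite strand. A match to these letters is not evidence of binding.

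Among the subunits, NFKB2 changed most. NFKB2 (chromosome 10, 102394110 to 102402529, plus strand, GENCODE release 29) encodes the precursor that is processed to the DNA-binding subunit of the alternative arm. It had 76.5, 73.78 and 76.33 FPKM in GK921 libraries, against 16.46, 15.76 and 18.15 FPKM in DMSO libraries. The GK921 values lay close together and the lowest was 4.07-fold above the highest DMSO value. The log2 change was 2.11 ± 0.058 (SE, from 3 libraries in each group, here and below), with a limma adjusted p of 5.11e-09, and 1.21% of tested genes rose by more. RELB (chromosome 19, 45001430 to 45038198, plus strand) encodes the usual partner of the NFKB2 product and activates transcription. It had 40.76, 37.8 and 40.2 FPKM in GK921 libraries, against 10.35, 9.51 and 9.69 FPKM in DMSO libraries. Its rise was 4.02-fold, a log2 change of 1.90 ± 0.060 (limma adjusted p = 1.09e-08).

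RELA (chromosome 11, 65653596 to 65663094, minus strand) encodes the main activating subunit of the classical arm. It had 71.98, 69.69 and 67.82 FPKM in GK921 libraries, against 36.24, 39.39 and 40.53 FPKM in DMSO libraries. Both groups were tight and far apart, and the log2 change was 0.84 ± 0.052 (limma adjusted p = 7.51e-07). An annotated gene on the opposite strand, AP001362.2, overlaps RELA, and whether reads were counted by strand is not stated. NFKB1 (chromosome 4, 102501329 to 102617302, plus strand) encodes the precursor of the DNA-binding partner of RELA. It had 30.35, 30.37 and 29.2 FPKM in GK921 libraries, against 22.69, 23.41 and 22.95 FPKM in DMSO libraries. The rise was small but larger than the spread, with a log2 change of 0.37 ± 0.049 (limma adjusted p = 0.000116), and its call was lost when tested against a change of 1.2-fold (adjusted p = 0.0622). REL (chromosome 2, 60881521 to 60931610, plus strand), the c-Rel subunit best known from lymphocytes, was the least abundant of the 10. It had 6.08, 5.14 and 5.26 FPKM in GK921 libraries, against 4.32, 3.94 and 3.37 FPKM in DMSO libraries. The gap between the groups was 0.82 FPKM, and the log2 change of 0.41 ± 0.11 (limma adjusted p = 0.00811) was not called with median-ratio scaling (adjusted p = 0.0554) or quantile normalization (0.166). Annotated genes on the same strand, RNU4-51P and AC010733.2, overlap REL.

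NFKB2 and RELB, the subunit genes of the alternative arm, made up more of the subunit mRNA in GK921 libraries. The 5 subunit genes summed to 220.4 ± 4.66 FPKM in GK921 libraries and 92.3 ± 2.32 FPKM in DMSO libraries (± SD over the 3 libraries of each group, here and below). NFKB2 made up 34.3% ± 0.534 of that sum in GK921 libraries and 18.2% ± 1.02 in DMSO libraries. RELB made up 18% ± 0.476 in GK921 libraries and 10.7% ± 0.699 in DMSO libraries. These shares do not depend on the scaling of a library. For both genes the groups did not overlap, but how often the shares of other genes would separate in this way was not counted. On FPKM itself all GK921 values lay above all DMSO values for 48% of tested genes, so separation as such was common. The shares are parts of one sum, so larger shares of NFKB2 and RELB leave less of it for RELA, NFKB1 and REL. RELA made up 31.7% ± 0.606 in GK921 libraries and 42% ± 1.48 in DMSO libraries, although its own FPKM rose. NFKB1 made up 13.6% ± 0.358 in GK921 libraries and 25% ± 0.637 in DMSO libraries, and REL 2.49% ± 0.178 and 4.21% ± 0.622. The ratio of NFKB2 to NFKB1 was 2.52, 2.43 and 2.61 in GK921 libraries, against 0.725, 0.673 and 0.791 in DMSO libraries. NFKB2 thus exceeded NFKB1 in each GK921 library and was below it in each DMSO library. Of tested genes 36.8% had a larger log2 change than NFKB1, so NFKB2 was not alone in rising against it. The ratio of RELB to NFKB2, partners in the alternative arm, was 0.524 ± 0.0105 in GK921 libraries and 0.589 ± 0.0491 in DMSO libraries, with the lowest DMSO value (0.534) level with the highest GK921 value (0.533).

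**Figure D2:**
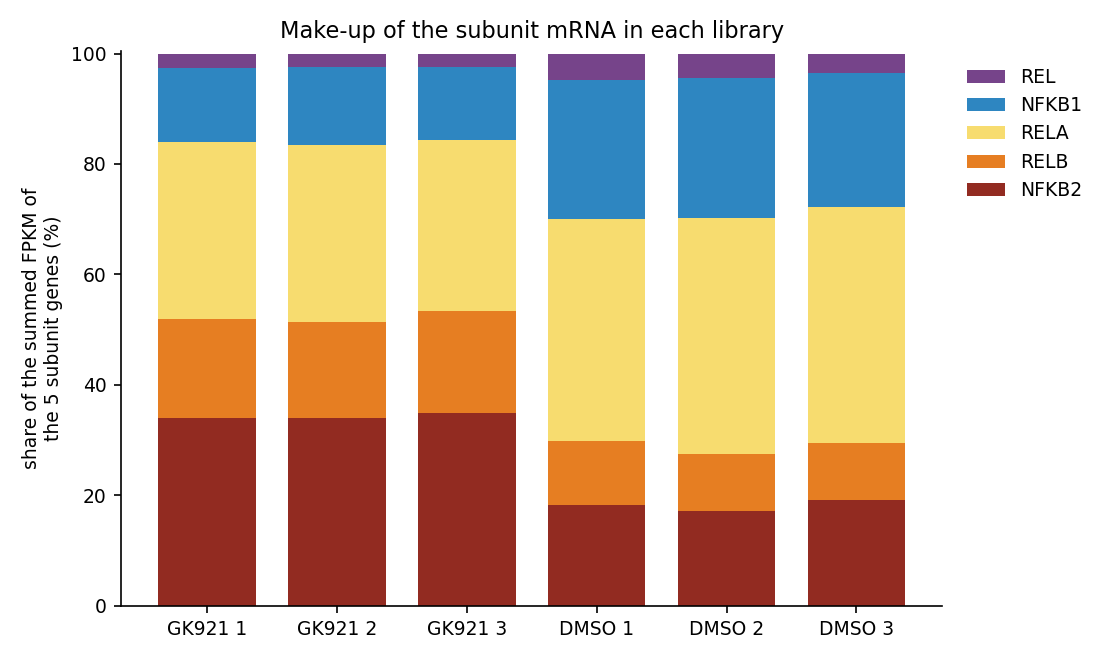
Share of the summed FPKM of the 5 subunit genes (vertical axis, percent) in each library, with the 3 GK921 bars left of the 3 DMSO bars. NFKB2 and RELB together fill more of each GK921 bar than of any DMSO bar, and RELA and NFKB1 fill less.

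The inhibitors did not move together. NFKBIA (chromosome 14, 35401511 to 35404749, minus strand) encodes IkappaBalpha, the inhibitor that is destroyed first and made again fastest in the classical loop. It had 39.61, 44.26 and 42.92 FPKM in GK921 libraries, against 35.38, 36.73 and 35.07 FPKM in DMSO libraries. The log2 change was 0.24 ± 0.053 (limma adjusted p = 0.00318), of which 0.08 lay above the change of the median gene. It was not called with median-ratio scaling (0.06, adjusted p = 0.301), upper-quartile scaling (0.13, adjusted p = 0.0539) or quantile normalization (0.12, adjusted p = 0.0664). Of tested genes 45.2% rose by more. NFKBIE (chromosome 6, 44258166 to 44265788, minus strand) encodes IkappaBepsilon, a slower inhibitor of the same kind. It had 18.04, 17.01 and 17.44 FPKM in GK921 libraries, against 4.69, 3.53 and 4.25 FPKM in DMSO libraries, with a log2 change of 1.85 ± 0.096 (limma adjusted p = 2.38e-07). NFKBIE, from a low base, thus rose 4.21-fold where NFKBIA rose 1.18-fold.

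BCL3 (chromosome 19, 44747705 to 44760044, plus strand) encodes an IkappaB family protein that works in the nucleus with dimers of the NFKB1 or NFKB2 products. It had 28.77, 26.28 and 28.6 FPKM in GK921 libraries, against 17.99, 17.63 and 18.6 FPKM in DMSO libraries (log2 change 0.60 ± 0.058, limma adjusted p = 1.46e-05). An annotated gene on the same strand, MIR8085, overlaps BCL3. TNFAIP3 (chromosome 6, 137867188 to 137883312, plus strand) encodes A20, a ubiquitin-editing enzyme that shuts off signalling upstream of IKK. It had 21.37, 20.88 and 17.73 FPKM in GK921 libraries, against 8.77, 10 and 8.16 FPKM in DMSO libraries. The third GK921 library was the lowest of its group and still 1.77-fold above the highest DMSO library, and the log2 change was 1.07 ± 0.096 (limma adjusted p = 8.58e-06). An annotated gene on the opposite strand, AL357060.1, overlaps TNFAIP3. BIRC3 (chromosome 11, 102317450 to 102339403, plus strand) encodes cIAP2, a ubiquitin ligase that holds back NIK and promotes survival after engagement of tumour necrosis factor receptors. It had 54.53, 55.56 and 53.48 FPKM in GK921 libraries, against 15.68, 13.68 and 14.69 FPKM in DMSO libraries (log2 change 1.83 ± 0.059, limma adjusted p = 1.21e-08).

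**Figure D3:**
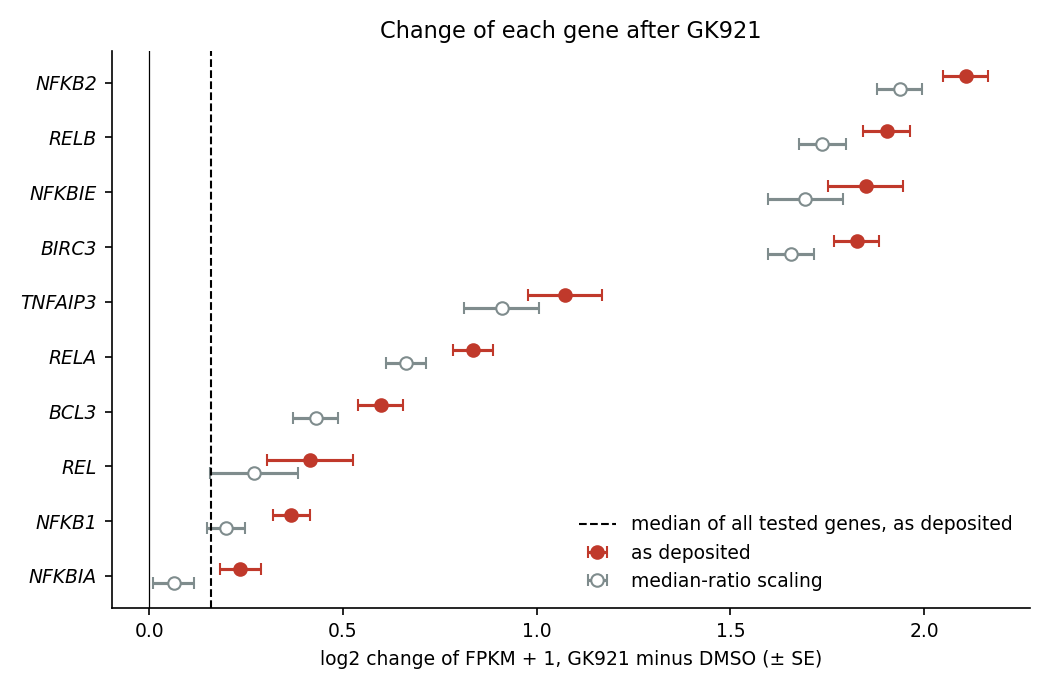
Log2 change of FPKM + 1 (horizontal axis, GK921 minus DMSO, whiskers ± SE) of each gene as deposited (filled) and after median-ratio scaling (open), with the median of all tested genes as a dashed line at 0.16. NFKB2, RELB, NFKBIE and BIRC3 lie between 1.83 and 2.11 as deposited, and after scaling the open point of NFKBIA lies at 0.06.

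Set against RELA within the same library, the inhibitors went different ways. The ratio of NFKBIA to RELA was 0.55, 0.635 and 0.633 in GK921 libraries, against 0.976, 0.932 and 0.865 in DMSO libraries, lower in every GK921 library. The ratio of BCL3 to RELA was also lower, at 0.399 ± 0.0223 in GK921 libraries and 0.468 ± 0.0256 in DMSO libraries. The ratio of NFKBIE to RELA was higher, at 0.251 ± 0.00654 in GK921 libraries and 0.108 ± 0.0201 in DMSO libraries. The ratio of TNFAIP3 to RELA was 0.286 ± 0.0213 in GK921 libraries and 0.232 ± 0.0276 in DMSO libraries, with all GK921 values above all DMSO values by a small margin. For all 4 ratios the groups did not overlap. Among the other 11572 tested genes the ratio to RELA lay lower in every GK921 library than in any DMSO library for 72.1%, and higher for 10.3%, so the lower ratios of NFKBIA and BCL3 went with those of most genes. NFKBIE mRNA stood at 0.415 ± 0.0364 of the NFKBIA level in GK921 libraries and at 0.117 ± 0.0187 in DMSO libraries. These ratios are of mRNA and not of protein.

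**Figure D4:**
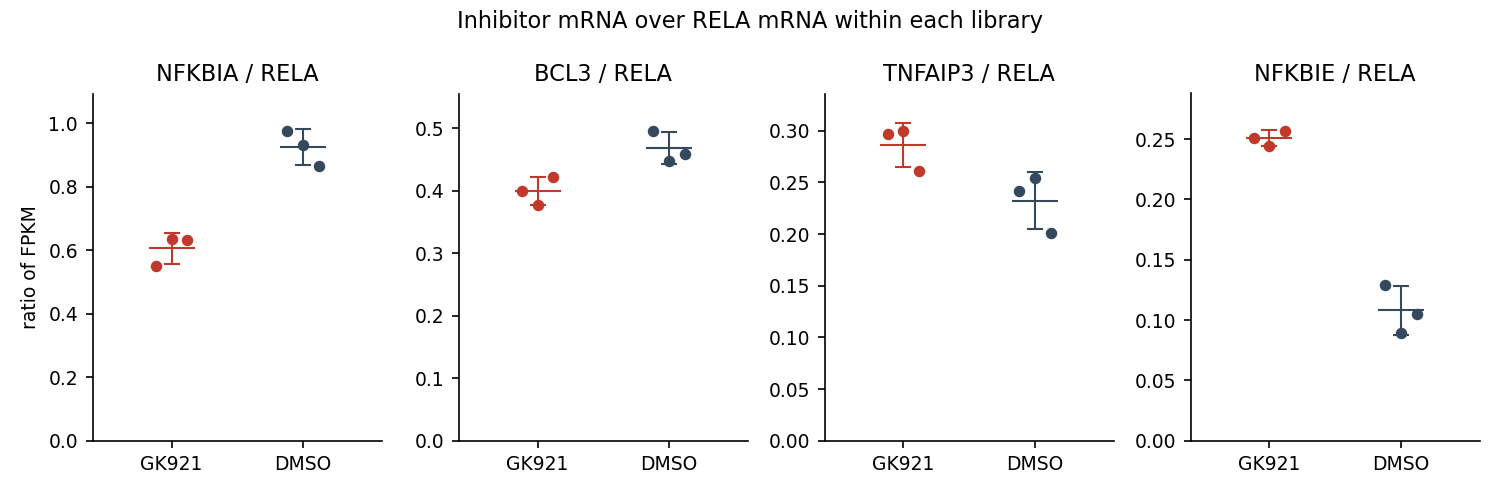
Ratio of the FPKM of 4 inhibitor genes to the FPKM of RELA in each library (vertical axes from 0), with GK921 in red left of DMSO in dark blue, means as horizontal bars and SD as whiskers. NFKBIA and BCL3 lie lower relative to RELA in GK921 libraries, and TNFAIP3 and NFKBIE lie higher.

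The order of the 10 levels also differed between the groups. In GK921 libraries NFKB2 was the most abundant, followed by RELA, BIRC3, NFKBIA, RELB, NFKB1, BCL3, TNFAIP3, NFKBIE and REL. Within that order NFKBIA and RELB overlapped, as did TNFAIP3 and NFKBIE. In DMSO libraries RELA was the most abundant, followed by NFKBIA, NFKB1, BCL3, NFKB2, BIRC3, RELB, TNFAIP3, NFKBIE and REL. Within that order 4 neighbouring pairs overlapped, namely RELA with NFKBIA, BCL3 with NFKB2, RELB with TNFAIP3 and NFKBIE with REL. FPKM is per kilobase, so these levels can be set side by side between genes as far as the transcript models behind them are right.

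Genes with the pattern most like a member were sought by the distance between centred log2(FPKM + 1) values over the 6 libraries. Nearest to NFKB2 were HID1, FLNC and IRF1, at distances of 0.0615, 0.111 and 0.122. IRF1, an interferon response transcription factor, averaged 68.5 FPKM in GK921 libraries and 14.7 FPKM in DMSO libraries, a log2 change of 2.14. Nearest to RELA were NINL, FOXO1 and SIRT2, at 0.0698, 0.0756 and 0.0835. Nearest to NFKBIA were ZNF644, CTSD and IGF1R, at 0.0288, 0.042 and 0.0449, and 723 genes lay within 0.2 of NFKBIA, against 11 within 0.2 of NFKB2. With 2 groups of libraries this likeness says little beyond a change of the same size.

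The rest of the pathway was described by role, beside a median log2 change of 0.16 and 46.8% higher over all tested genes. Some genes are on more than 1 list. Of the 6 other genes of the IkappaB family and its regulators, 5 were higher and none lower, with a median log2 change of 0.88. NFKBIB, which encodes IkappaBbeta, averaged 53 ± 6.17 FPKM in GK921 libraries and 18.6 ± 1.58 FPKM in DMSO libraries (limma adjusted p = 8.28e-07). NFKBIZ, whose product is a nuclear IkappaB protein, rose 2.15-fold, and NFKBIL1 and NKIRAS2 rose 2.27-fold and 1.67-fold. NFKBIA was thus the smallest of the changes among the 3 classical inhibitors NFKBIA, NFKBIB and NFKBIE.

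Of 16 genes of IKK and its upstream kinases, 11 were higher and none lower (median 0.45). Median-ratio scaling changed this to 9 higher and 4 lower. Of the IKK core genes, only IKBKB was called on the deposited scale. CHUK, the IKKalpha gene, averaged 27.5 ± 0.798 FPKM in GK921 libraries and 28.8 ± 0.582 FPKM in DMSO libraries (limma adjusted p = 0.251), and with median-ratio scaling it was called lower (-0.24, adjusted p = 0.00202). IKBKB, the IKKbeta gene, rose 1.29-fold (adjusted p = 0.00175). IKBKG, the scaffold gene, has a near-identical pseudogene and is uncertain; it averaged 20.3 ± 2.18 FPKM in GK921 libraries and 23.9 ± 4.62 FPKM in DMSO libraries (adjusted p = 0.149), and was called lower with median-ratio scaling (-0.39, adjusted p = 0.0215). MAP3K14, which encodes NIK, rose 1.83-fold to 11.7 ± 1.17 FPKM in GK921 libraries, against 6.41 ± 0.135 FPKM in DMSO libraries (limma adjusted p = 3.98e-05). By log2 change of FPKM + 1, the largest rises on the list were those of MAP3K3 (2.07-fold), AZI2 (1.87-fold), TAB3 (1.97-fold) and TANK (1.82-fold). MAP3K3 is a kinase upstream of IKK, TAB3 an adaptor of the kinase TAK1, and AZI2 and TANK are adaptors of TBK1.

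Of 23 receptor adaptor genes, 15 were higher and 3 lower (median 0.42). TRAF1, an adaptor gene that is itself a target of the pathway, had 17.58, 15.26 and 15.87 FPKM in GK921 libraries, against 1.7, 2.22 and 2.85 FPKM in DMSO libraries (7.19-fold, log2 change 2.42 ± 0.13, limma adjusted p = 3.32e-07). TRADD, the adaptor of tumour necrosis factor receptor 1, rose 3.22-fold, and BCL10, which links antigen and lectin receptors to IKK, rose 2.13-fold. IRAK1, a kinase of the interleukin 1 and Toll-like receptors, fell to 116 ± 1.31 FPKM in GK921 libraries, against 208 ± 3.56 FPKM in DMSO libraries (limma adjusted p = 2.21e-08). BIRC2, the close relative and chromosomal neighbour of BIRC3, rose 1.45-fold, beside 3.71-fold for BIRC3. Of 13 tested genes of linear ubiquitin and the partners of A20, 10 were higher and 2 lower (median 0.50). TNIP1, an A20 partner, rose 2.35-fold, TAX1BP1 1.71-fold and RBCK1, a subunit of the linear ubiquitin ligase, 1.81-fold, while the deubiquitinase gene USP7 fell by 0.41 on the log2 scale.

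Of 16 tested receptor genes, 9 were higher and 4 lower (median 0.28). Of the chains of the interleukin 1 receptor, IL1RAP rose 2.92-fold whereas IL1R1 fell to 8.29 ± 0.728 FPKM in GK921 libraries, against 19.5 ± 2.04 FPKM in DMSO libraries (limma adjusted p = 5.01e-06). TNFRSF10B rose 2.5-fold and TLR1 2.66-fold. TNFRSF1A, the main tumour necrosis factor receptor gene, rose 1.18-fold, a call lost with median-ratio scaling (adjusted p = 0.116). Of 17 ligand genes 7 were tested, with 3 higher and 2 lower (median 0.14), and median-ratio scaling gave 3 in each direction. TNFSF15 in DMSO libraries and IL1B in GK921 libraries averaged under 1 FPKM, so both passed the expression limit only through the other group. With a limit of 5 FPKM on the mean, 3 ligand genes were tested, with 2 higher and 0 lower. IL1A rose 12.5-fold, IL1RN, the receptor antagonist gene, rose 5.25-fold, and TNFSF15 averaged 2.25 ± 0.562 FPKM in GK921 libraries and 0.647 ± 0.216 FPKM in DMSO libraries. IL1B averaged 0.683 ± 0.441 FPKM in GK921 libraries and 2.1 ± 0.956 FPKM in DMSO libraries (limma adjusted p = 0.0135), and without the second DMSO library it was not called (adjusted p = 0.0514). TNF itself was near 0, at 0.46, 0.15 and 0.14 FPKM in GK921 libraries and 0, 0.25 and 0 FPKM in DMSO libraries.

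Of 44 other textbook NF-kappaB targets, 32 were tested, of which 24 were higher and 4 lower (median 0.76). By log2 change of FPKM + 1, LCN2, IL1A and IL32 had the largest rises (5.11, 3.18 and 2.62), while by the ratio of mean FPKM IL6, TRAF1 and CXCL2 rose more than IL32 (8.04-fold, 7.19-fold and 6.92-fold against 6.37-fold). IL32, an inflammatory cytokine gene, averaged 154 ± 3.65 FPKM in GK921 libraries and 24.2 ± 0.52 FPKM in DMSO libraries (limma adjusted p = 2.33e-10). CXCL8, a neutrophil chemokine gene, went the other way at 4.69 ± 0.571 FPKM in GK921 libraries and 16.6 ± 1.05 FPKM in DMSO libraries (limma adjusted p = 4.71e-07). The classical targets SOD2 and IL6, like CXCL2, were named after their values were seen. SOD2 rose 2.83-fold, and IL6 averaged 2.73 ± 0.348 FPKM in GK921 libraries and 0.34 ± 0.09 FPKM in DMSO libraries. The fold of IL6 thus rests on a DMSO mean near 0. Of the called targets, IL6 and CX3CL1 averaged under 1 FPKM in DMSO libraries, and IL1B in GK921 libraries. They passed the expression limit only through the other group. With a limit of 5 FPKM on the mean, 26 targets were tested, with 22 higher and 2 lower.

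**Figure D5:**
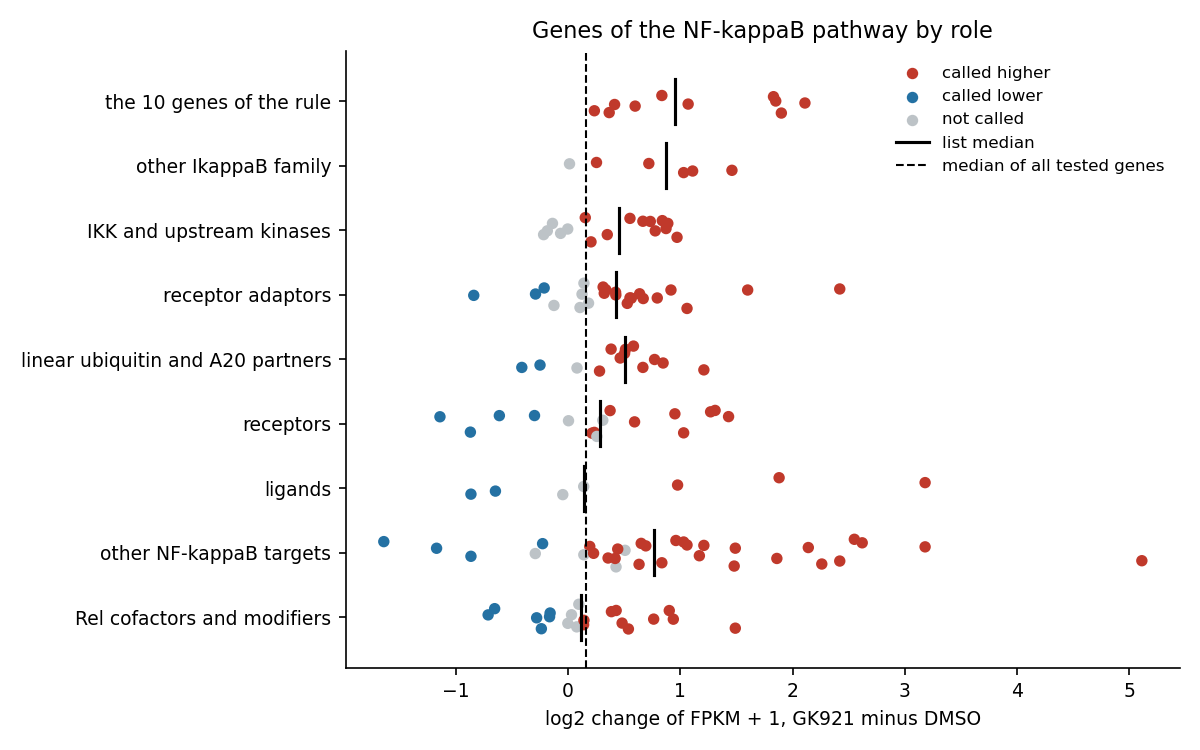
Log2 change of FPKM + 1 (horizontal axis, GK921 minus DMSO) of each tested gene of 9 lists, coloured by its call, with list medians as black bars and the median of all tested genes as a dashed line at 0.16. The 10 genes all lie to the right of the dashed line, and the lists of receptors and ligands spread to both sides of it.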

How the data were processed

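Trizol-isolated total RNA was sequenced on standard Illumina libraries, per the labels' protocols. FastQC 0.11.5, HISAT2, featureCounts and edgeR, with the build hg38, stand in the submitters' processing notes without roles. Annotation and strand handling are not stated. The deposited values are FPKM with 2 decimals, the unit resting on the name of the authors' table. Sample titles gave each library its group and replicate number. No pair of libraries within a group shared more than 0.389% identical values among tested genes, and each library counted as 1 replicate.

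The test was limma 3.58.1 (R 4.3.3) on log2(FPKM + 1) for genes averaging 1 FPKM or more, with treatment as the only term, an intensity trend and Benjamini-Hochberg adjustment over all 11573 tested genes. The limma fit was tested on simulated data without a shift in library scaling, so that test does not bear on calls that depend on scaling. Relative depths rest on 87 to 197 low genes per pair of libraries and assume equal gene lengths across libraries. Gene positions came from GENCODE release 29 (GRCh38), promoters from RefSeq (GRCh38.p14). From each pathway list the text names the 4 called genes that changed most in log2(FPKM + 1), keeping both directions where both occurred. Genes named beyond that rule, such as the IKK core, MAP3K14, BIRC2, TNFRSF1A, TNF and RNF31, were chosen after their values were seen. The 10 genes and all lists were chosen with earlier results of these data known, so no list is independent evidence. Alternatives covered the pseudocount, the expression limit, 4 rescalings, the replicate block, each library left out, the variance model and a test against 1.2-fold (treat).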

Additional observations from a re-analysis of the deposited data

How the results depend on the processing

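Of 189 refits of the 10 genes under 19 alternatives, 181 kept the direction and the call, 8 kept the direction and lost the call, and none reversed. The losses were NFKBIA in 4, REL in 3 and NFKB1 in 1, under rescaling or treat (for treat, adjusted p = 0.0622 for NFKB1, 0.184 for REL and 0.941 for NFKBIA). Treat called 3595 genes higher and 2135 lower over all tested genes. Of the other pathway genes it called 65 higher in place of 83 and 10 lower in place of 20. With each library left out in turn all 10 genes were called higher, and between 5134 and 5232 of all genes. Quantile normalization gave 4386 higher and 4079 lower. With a mean of at least 5 FPKM, REL was no longer tested. Same-numbered libraries of the groups did not deviate together (correlations 0.0305, 0.0473 and -0.00207), so numbers were not taken as pairs. With the replicate block 5351 genes were higher and 3355 lower, and all 10 genes kept their calls. Absolute depth is unknown, so no counting limit could be set for low genes.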

Other observations

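Of 20 tested cofactors and modifiers of the Rel proteins, 10 rose and 6 fell by the limma test (median log2 change 0.12). Over all tested genes 46.8% rose and 29.2% fell (median 0.16), so these counts were near the background. Median-ratio scaling gave 8 in each direction. HDAC2, a deacetylase that works as a corepressor, averaged 97.3 ± 4.55 FPKM in GK921 libraries and 160 ± 1.17 FPKM in DMSO libraries (limma adjusted p = 3.72e-07). PDLIM2 and COMMD1, whose products promote the removal of RELA from chromatin or its degradation, rose 3.88-fold and 1.93-fold, and the phosphatase gene PPM1D rose 2.02-fold.

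RNF31, which encodes the catalytic subunit of the linear ubiquitin ligase, was listed at 0.06, 0.03 and 0.03 FPKM in GK921 libraries and at 0.02, 0 and 0 FPKM in DMSO libraries, while its partner subunit gene RBCK1 averaged 94.6 FPKM in GK921 libraries and 52.1 FPKM in DMSO libraries. RNF31 was below the expression limit and was not tested. Overlaps with other genes were not looked up for RNF31, and whether its reads were lost in counting was not tested.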
